A study of Plecoglossus altivelis with 9 samples.

Results

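Gene expression in head kidney macrophages of ayu (Plecoglossus altivelis) exposed to the lower of 2 LECT2 doses was compared with that in untreated macrophages. The comparison used the 3 arrays labelled 0.5 μg/ml of LECT2 and the 3 arrays labelled 0 μg/ml, which are 6 of the 9 arrays of the series. The other 3 arrays, at 5 μg/ml, served to estimate the spread and are shown beside single probes. All cells were adherent cells from the head kidney, kept in medium with fetal calf serum and antibiotics and exposed for 3.5 h, so the groups differed by label only in the LECT2 dose. The submitters describe each replicate as an independent experiment on different fish, and they do not say whether a replicate number stands for the same experiment at each dose. Doses were taken from the titles and treatment labels, because 1 other label field gives 0 μg/ml for all 9 arrays. Neither strain nor age is given, and adherence is the only step named that selects macrophages. Every probe carries only its own ID in the files, so genes are not named, and the label macrophage could not be set against marker genes.

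LECT2 (leukocyte cell-derived chemotaxin 2) is a secreted protein made mainly by the liver and first known for attracting neutrophils. In mice it also acts on macrophages through a C-type lectin receptor. The head kidney is a main blood-forming and immune organ of bony fish, and its macrophages take up microbes and release cytokines.

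RNA from each sample was labeled with Cy3 and hybridized to a custom Agilent array of 49077 probes. A spot that the extraction software marks as well above background is called detected here. At 0.5 μg/ml, 16531, 19755, and 24519 probes were detected on replicates 1, 2, and 3, against 24171, 20827, and 19735 on the same replicates at 0 μg/ml. The order of the replicates was thus opposite in the 2 groups, and the groups overlapped. The mean was 20268 ± 4019 at 0.5 μg/ml and 21578 ± 2311 at 0 μg/ml (SD, n = 3 each). The difference of means, −1309 probes, was smaller than the spread between replicates (exact permutation test, two-sided, p = 0.8, where 3 against 3 arrays allow no p below 0.1). Number by number, the count at 0.5 μg/ml minus that at 0 μg/ml was −7640 for replicate 1, −1072 for replicate 2, and 4784 for replicate 3. Without replicate 1 at 0.5 μg/ml, the mean at that dose was higher by 559. Without replicate 1 at 0 μg/ml instead, the difference of means was −13. Replicate 1 at 0.5 μg/ml had the highest floor, the lowest intensity the software gives a spot, at 15.1 against 7.27 to 12.3 on the other 5 arrays. The 7.27 was that of replicate 1 at 0 μg/ml. Replicate 1 at 0.5 μg/ml also had the most probes at the floor, 41.7% against 25.4% to 35.7%. The part of the floor in the detection counts was not tested.

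A probe was tested if it was detected on all 3 arrays of either dose, which gave 17782 probes, 36.2% of the array. Of these, 15053 (84.7%) were detected on all 6 arrays. Another 2421 probes (13.6%) were tested only because they were detected on all 3 arrays at 0 μg/ml, and 308 only because of the arrays at 0.5 μg/ml. A probe that entered through 1 dose alone was high there by construction, so the direction of these probes is partly set by the filter. Detection on all 3 arrays at 0.5 μg/ml and none at 0 μg/ml was found for 4 probes, and the opposite pattern for 20. Among replicates 2 and 3 alone, 402 probes were detected on both arrays at 0.5 μg/ml and neither at 0 μg/ml, against 33 with the opposite pattern. The balance of gained and lost probes therefore turned round when replicate 1 was left out.

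The 6 arrays were first compared with each other over the tested probes, on the log2 intensity minus the 75th percentile of the array. Here the spread was largest between arrays of different scans, as named in the file headers, and differed less with the replicate number within a scan. Replicates 1 and 3 of both doses were in the first scan and replicate 2 of both doses in the second. Between arrays that share a number, the log2 difference of 0.5 minus 0 μg/ml had an SD over probes of 0.365 for replicate 1, 0.404 for replicate 2, and 0.411 for replicate 3. Unequal-numbered arrays of the first scan differed slightly more, with an SD of 0.451 for replicate 1 at 0.5 μg/ml against replicate 3 at 0 μg/ml, and 0.45 for replicate 3 against replicate 1. Across scans the SD was 0.724 to 0.959. Within a dose it was 0.744 and 0.913 across scans and 0.591 within the first scan at 0.5 μg/ml, and 0.727 and 0.747 across scans and 0.279 within the first scan at 0 μg/ml. Replicates 1 and 3 at 0 μg/ml were therefore more alike than any array at 0.5 μg/ml and any array at 0 μg/ml. Arrays of the same number and dose pair had a correlation of 0.983 to 0.986 over the tested probes, which are not independent replicates, and the other between-dose pairs 0.908 to 0.981. Among these 6 arrays, the number and the scan cannot be told apart for replicate 2.

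**Figure D1:**
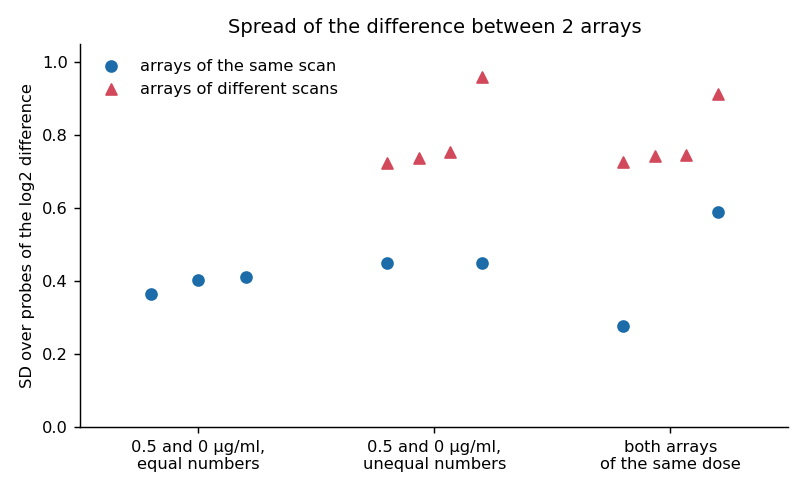
SD over the 17782 tested probes of the log2 difference between 2 arrays, for the 15 pairs of the 6 arrays, grouped by whether the arrays have different doses and equal numbers, different doses and unequal numbers, or the same dose. Circles are arrays of the same scan and triangles arrays of different scans; the 3 equal-numbered pairs lie at 0.365 to 0.411, and the lowest point, at 0.279, is replicates 1 and 3 at 0 μg/ml.

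Without regard to replicate number, no probe passed the test between 0.5 and 0 μg/ml. In limma over all 9 arrays, 0 of 17782 probes (0%) had an adjusted p under 0.05, and 181 (1.02%) had an unadjusted p under 0.05. The mean change over all tested probes was small. It had a median of 0.03 on the log2 scale, with 90% of the probes between −0.40 and 0.34 and the extremes at −1.97 and 2.19. A mean change above 1, which is 2-fold, was measured for 24 probes and one below −1 for 61. The median SE of a probe's change was 0.303. For 13095 probes (73.6%) the 95% confidence interval of the change lay within 1 on either side of 0, so a 2-fold change lay outside the interval. For the remaining probes the data at this number of arrays do not exclude a 2-fold change in 1 direction or the other.

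The 2 doses were then compared number by number. The median difference was −0.06 for replicate 1, 0.17 for replicate 2, and 0.01 for replicate 3. Differences beyond 1 on the log2 scale were found for 378 probes (170 higher and 208 lower at 0.5 μg/ml) in replicate 1, 431 (146 and 285) in replicate 2, and 474 (91 and 383) in replicate 3. Which probes these were differed much between replicates. Over 17657 probes (those without an outlier mark on these arrays), the differences of replicates 1 and 2 had a correlation of 0.0361, those of 1 and 3 of −0.0691, and those of 2 and 3 of 0.211. These are correlations across probes of the same arrays and are given as a description.

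**Figure D2:**
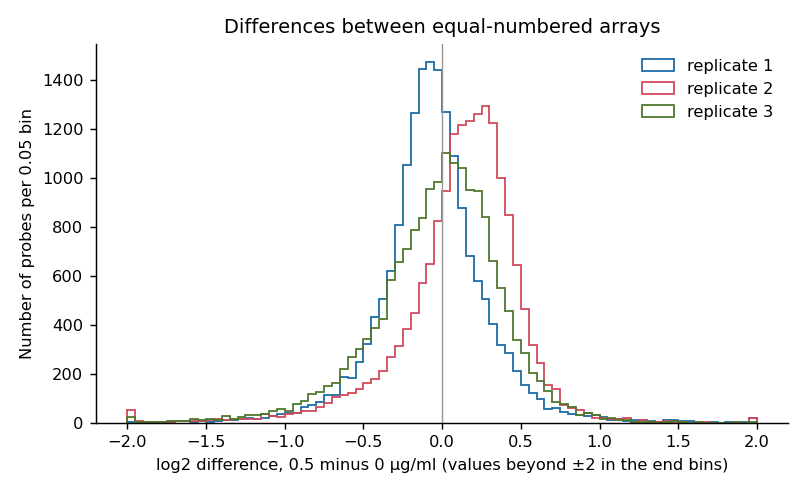
Histogram of the log2 difference between 0.5 and 0 μg/ml for each replicate number over the tested probes, in bins of 0.05, with values beyond 2 on either side in the end bins. The distribution of replicate 2 lies to the right of the others, with a median of 0.17 against −0.06 for replicate 1 and 0.01 for replicate 3.

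All 3 equal-numbered differences were above 0 for 2407 probes (13.6%) and below 0 for 1524 (8.63%). The excess of higher probes depended on the scaling between arrays and on the detection filter. Their share was 61.2% here, 38.1% with the 75th percentile taken over the probes detected on all 6 arrays, and 89.5% on the authors' table, where the median change was 0.17. With quantile normalization it was 54.1%, and with normexp (a correction that models signal and background) on the median signals 49.5%. The arrays at 0.5 μg/ml all lay above those at 0 μg/ml for 319 probes (1.81%) and all below for 254 (1.44%). For 3 against 3 arrays that could be swapped freely, such a separation 1 way or the other has a probability of 0.1. That is above both shares together, though arrays of different scans cannot be swapped freely. The counts are a description and not a test of a response. Of these separated probes 55.7% were higher, against 40.6% with the percentile over probes detected on all 6 arrays. It was 85.2% on the authors' table, 45.4% with normexp, 55.7% with quantile normalization too, and 54.9% with outlier spots kept. Among the 14959 probes detected on all 6 arrays, 2241 had all 3 differences above 0 and 883 below (71.7% higher), and 295 and 95 had groups that did not overlap (75.6% higher). With no detection filter, 46.3% of the probes whose 3 differences share a sign were higher, and 52% of those whose groups did not overlap.

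The direction of the change also followed the level of the probe. The tested probes were split into 4 groups of equal size by their mean level. In the dimmest group, the median change was −0.08 and 37.8% of the probes were higher at 0.5 μg/ml. In the next 2 groups, the medians were 0.02 and 0.05, with 54% and 64% higher. In the brightest group the median was 0.08 and 73.2% were higher. The dimmest group held 2346 of the 2421 probes that were tested only through the arrays at 0 μg/ml, and its differences varied more between replicate numbers (median SD 0.372) than those of the brightest group (0.236). What the filter and the scaling contribute to this trend was not tested.

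When the replicate number was taken into account as a block over the 6 arrays, a small group of probes passed the test. It held 28 probes, 11 higher (0.0619% of 17782) and 17 lower (0.0956%) at 0.5 μg/ml, by adjusted p from limma. Only 4 of the 28 were detected on all 6 arrays. The others entered the test through 1 dose alone, where they were high, so the filter partly set their direction. At an unadjusted p under 0.05 there were 1115 probes (6.27%). With the block the median SE of a change was 0.193, against 0.303 without it, and 17058 probes (95.9%) then had a 95% interval within 1 of 0. The equal-numbered arrays also share a scan, so the block removes a constant shift between scans too. The count depended on the fit. At 5 μg/ml replicate 3, and not replicate 2, was in the second scan, so over all 9 arrays the block and the scan do not line up. With the block over all 9 arrays no probe was called in limma, and 351 had an unadjusted p under 0.05 (0 called after adjustment). It was also 0 with quantile normalization, with the 75th percentile over probes detected on all 6 arrays, with no filter on dim probes, and without replicate 1 at both doses (959, 1069, 964, and 1490 at an unadjusted p under 0.05 in limma). It was 14 without replicate 2 and 173 without replicate 3 at both doses. In limma the spread of a probe is joined with a spread pooled over all probes, weighted in degrees of freedom. With 3 arrays per dose, the SE and p of the block fit rest largely on the pooled part. Its weight was 14 as reported, 3.79 with quantile normalization, 3.59 with the percentile over probes detected on all 6 arrays, and unlimited without replicate 3. Unadjusted counts in limma (p under 0.05) were 1115, 959, 1069, and 889 in the same order.

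**Figure D3:**
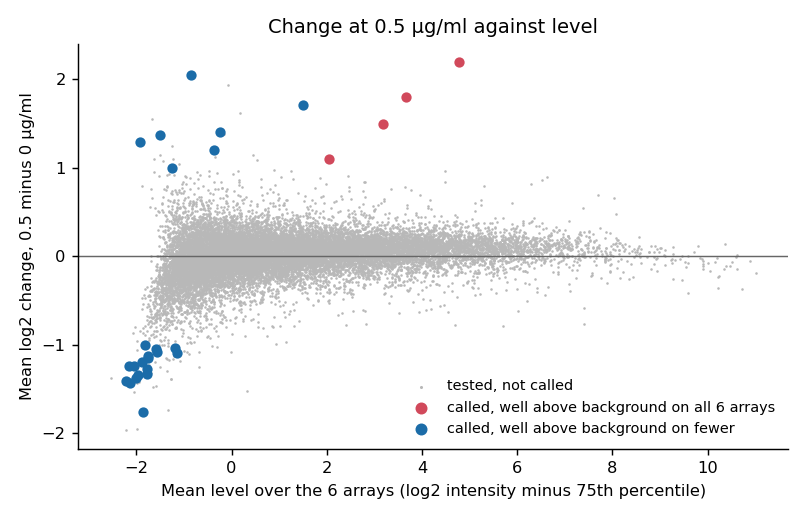
Mean log2 change between 0.5 and 0 μg/ml against the mean level over the 6 arrays for the 17782 tested probes, with the 28 probes called with the replicate block as large points. The 4 called probes detected on all 6 arrays (red) lie to the right of the other called probes with changes of 1.09 to 2.19, and the 17 lower ones lie together at the dim end.

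The 11 higher probes changed by 0.99 to 2.19 on the log2 scale (median 1.40). All 11 were detected on all 3 arrays at 0.5 μg/ml. At 0 μg/ml, 4 of them were detected on all 3 arrays, 4 on 2, and 3 on 1, so 7 of the 11 entered through the dose where they were high. The single differences ran from 0.58 to 3.25. The highest, in replicate 2 of A_1000000_P0022361, was taken against a value at the floor of the untreated array (−3.75) and is not an exact difference; no other of the 11 lay at a floor at 0 μg/ml. In 8 of the 11, replicate 2 had the lowest value of its dose at both 0.5 and 0 μg/ml, and the groups overlapped for 7 of these 8. How many of all tested probes have replicate 2 lowest at both doses is not given here. In limma without the block, 5 of the 8 passed 0.05 before adjustment of p and 0 after it.

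The largest of these changes, and the smallest p in the block fit, was that of probe A_1000000_P0000042. Its normalized log2 intensity was 6.62, 4.17, and 6.81 on replicates 1, 2, and 3 at 0.5 μg/ml, against 4.47, 2.53, and 4.04 at 0 μg/ml. Replicate 2 was the lowest at each dose, and its value at 0.5 μg/ml lay below that of replicate 1 at 0 μg/ml. Number by number the differences were 2.15, 1.64, and 2.77 (SD 0.57). The SE of the block fit rests largely on the spread pooled over all probes and not on these differences. The mean change was 2.19, a 4.56-fold higher intensity, with an SE of 0.22 and an adjusted p of 0.000467 from limma with the block, and an SE of 0.68 and an unadjusted p of 0.00819 without it. It was detected on all 9 arrays. At 5 μg/ml it had 10.05, 9.24, and 9.51, with replicate 2 again the lowest. Across doses its means were 3.68 ± 1.02 at 0 μg/ml, 5.87 ± 1.47 at 0.5 μg/ml, and 9.60 ± 0.42 at 5 μg/ml (SD, n = 3 each). Its change at 0.5 μg/ml stayed between 1.90 and 2.46 under the 12 alternatives to the block fit, and its call was lost under 5 of them, with adjusted p from 1.45e-23 to 1 in limma. The lowest of these came from the fit of probes detected on all 6 arrays, where the pooled spread had a weight of 649 degrees of freedom.

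Probe A_1000000_P0025673 had the next smallest p. It had 3.73, −0.58, and 3.90 at 0.5 μg/ml, against 2.23, −2.30, and 2.01 at 0 μg/ml. Here replicate 2 stood over 4 log2 units below the others at each dose, which is more than the change itself, and it was not detected at 0 μg/ml. The differences were 1.50, 1.71, and 1.89 (SD 0.20), of which the 1.71 is measured against an undetected spot and is uncertain. The probe entered the test only through the arrays at 0.5 μg/ml, where it was high. The fitted mean, which rests on that value too, was 1.70 (SE 0.19, adjusted p = 0.000774 from limma with the block), against an SE of 1.30 and an unadjusted p of 0.218 without it. At 5 μg/ml the values were 7.50, 6.40, and 7.39. Replicate 2 was the lowest there too, by less than at the other doses. At that dose it is replicate 3, and not replicate 2, that was in the second scan. What the scan contributes to these values was not tested. The change was 1.22 to 1.83 under 11 alternatives, and the call was lost under 5.

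The other 9 higher probes differed in what they did at 5 μg/ml. Of all 11, 8 lay 2.90 to 6.45 above their mean at 0 μg/ml on the arrays at 5 μg/ml. These 8 include the 4 probes detected on all 6 arrays, which lay 3.61 to 5.92 above it. In most of these 8, replicate 2 was the lowest array at 5 μg/ml as well. In A_1000000_P0037820 replicate 3 was the lowest (2.17, 1.98, and 1.66). The share of all tested probes with replicate 2 lowest at 5 μg/ml is not given here, and the part of the scan was not tested. The remaining 3 of the 11 lay between −0.79 and 0.78 of their mean at 0 μg/ml. They were detected on 1 array each at 0 μg/ml and had a higher mean at 0.5 than at 5 μg/ml. The untreated arrays are shared by the changes at either dose, so the changes are not independent. The share of all tested probes that lie as far above their untreated mean at 5 μg/ml is not given here. The 8 of 11 is therefore a description and not a test of a dose response.

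**Figure D4:**
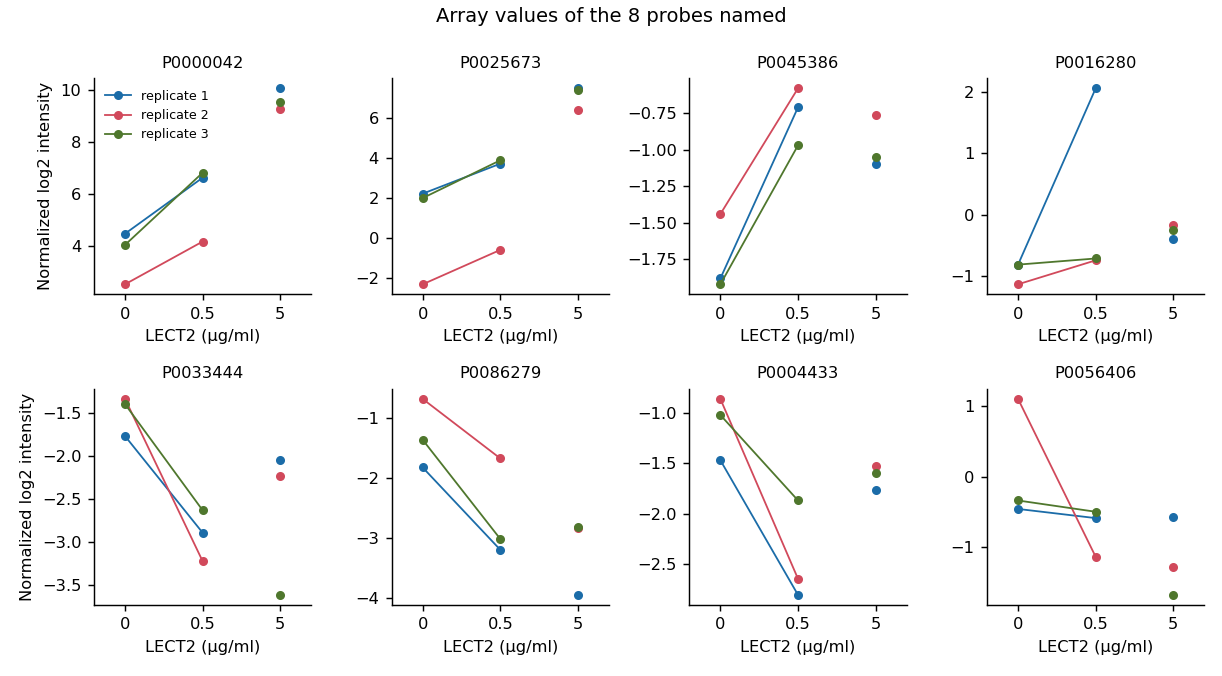
Normalized log2 intensity on each array at 0, 0.5, and 5 μg/ml of LECT2 for the 8 probes named in the text, with lines joining equal-numbered arrays at 0 and 0.5 μg/ml and 1 colour per replicate number. In P0000042 and P0025673 the 3 lines all rise with replicate 2 below the others, and in P0025673 they run nearly parallel. A single replicate makes most of the change in P0016280 and P0056406. Each panel has its own vertical scale.

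The 17 lower probes were all dim. Their changes were 1.01 to 1.75 on the log2 scale in size (median −1.24). All were detected on the 3 arrays at 0 μg/ml and none on all 3 at 0.5 μg/ml, where 3 were detected on 2 arrays, 10 on 1, and 4 on none. They thus all entered the test through the arrays at 0 μg/ml. On replicate 1 at 0.5 μg/ml, the array with the highest floor, 7 of the 17 lay at the floor. In 13 of the 17, replicate 2 was the highest array at 0 μg/ml. The share of all tested probes with this order is not given here, so the count is only a description. The part of the floor and the filter in these calls was not tested. When only probes detected on all 6 arrays were fitted with the block, none of the 17 was in the test, and 100 probes passed (60 higher and 40 lower at 0.5 μg/ml). Only 4 of the 28, all higher, were in that test, and all 4 were among these 100. The pooled spread had a weight of 649 degrees of freedom in that fit.

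Probe A_1000000_P0033444 had the smallest p of the lower probes. It had −2.89, −3.22, and −2.63 at 0.5 μg/ml, against −1.77, −1.34, and −1.40 at 0 μg/ml. All arrays at 0.5 μg/ml lay below all at 0 μg/ml, and none of them detected the probe. Detected spots at 0.5 μg/ml began at −1.61 on average. Set against the mean at 0 μg/ml, this gives a bound of 1.08-fold lower at 0.5 μg/ml. The bound has no error estimate, and replicate 1 at 0 μg/ml (−1.77) lay below −1.61. By itself it does not show that the intensity was lower. The adjusted p of 0.00816 from limma with the block belongs to the fitted change of −1.41, which uses undetected values, and does not test this bound. The probe entered the test only through the arrays at 0 μg/ml, where it was high. This bound sets the mean at 0 μg/ml against the mean of, per array, the probe's value or the lowest detected value, whichever is higher. At 5 μg/ml the values were −2.05, −2.23, and −3.61.

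Probe A_1000000_P0086279 was likewise not detected on any array at 0.5 μg/ml. Its values were −3.20, −1.68, and −3.02 at 0.5 μg/ml, against −1.83, −0.69, and −1.37 at 0 μg/ml. The groups overlapped, since replicate 2 was the highest of both. The probe had a bound of 1.24-fold lower by the same reckoning, which again has no error estimate and does not by itself show a lower intensity. Its adjusted p of 0.00816 from limma with the block is again that of the fitted change, −1.34, on undetected values with replicate 1 at the floor, and it too entered only through the arrays at 0 μg/ml. With normexp, which adds an offset of 50, the fitted changes of this probe and of A_1000000_P0033444 were smaller in size, −0.46 and −0.28, and neither was called.

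The size of the difference was also asked of every pair at once. All 3 equal-numbered differences were above 1 for 7 probes (0.0396%) and below −1 for 3 (0.0170%). All 10 were among the 28, and 7 of them were tested through 1 dose only. With the lower bar of 0.5, the counts were 48 and 59, and with 0.25 they were 285 and 263, each out of 17657 probes. Among the 14959 probes detected on all 6 arrays and with a value on each, 3 had all 3 differences above 1 and 0 had all 3 below −1.

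Probes whose groups do not overlap give another view, and it is held here to the values, since these probes were chosen by them. Among probes detected on all 6 arrays, the largest change upward with no overlap was that of A_1000000_P0016280. It had 2.06, −0.74, and −0.71 at 0.5 μg/ml, against −0.81, −1.13, and −0.81 at 0 μg/ml. Replicate 1 alone gave nearly all of the mean change of 1.12, with a difference of 2.87 against 0.38 and 0.11. The largest change downward was that of A_1000000_P0056406, with −0.59, −1.14, and −0.50 at 0.5 μg/ml, against −0.46, 1.10, and −0.34 at 0 μg/ml. Here replicate 2 gave a difference of −2.24 and the other replicates −0.13 and −0.16. Neither probe was called with the block (adjusted p = 0.382 and 0.517 from limma).

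By p without the block, the first probe upward with no overlap was A_1000000_P0045386. It had −0.71, −0.58, and −0.97 at 0.5 μg/ml, against −1.88, −1.44, and −1.92 at 0 μg/ml, with differences of 1.17, 0.86, and 0.95 (mean 0.99, SE 0.24 without the block). The arrays at 0.5 μg/ml were all detected and those at 0 μg/ml on 1 array only. At 5 μg/ml it had −1.10, −0.76, and −1.05, near its values at 0.5 μg/ml. Downward it was A_1000000_P0004433, with −2.81, −2.65, and −1.87 at 0.5 μg/ml, against −1.47, −0.86, and −1.02 at 0 μg/ml (mean change −1.33, SE 0.29 without the block). It was detected on 1 array at 0.5 μg/ml and on all 3 at 0 μg/ml, and at 5 μg/ml it had −1.77, −1.53, and −1.60, between its values at the other doses. Both were called with the block (adjusted p = 0.0468 and 0.0115 from limma) and not without it, and both entered the test through the dose where they were high.

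**Figure D5:**
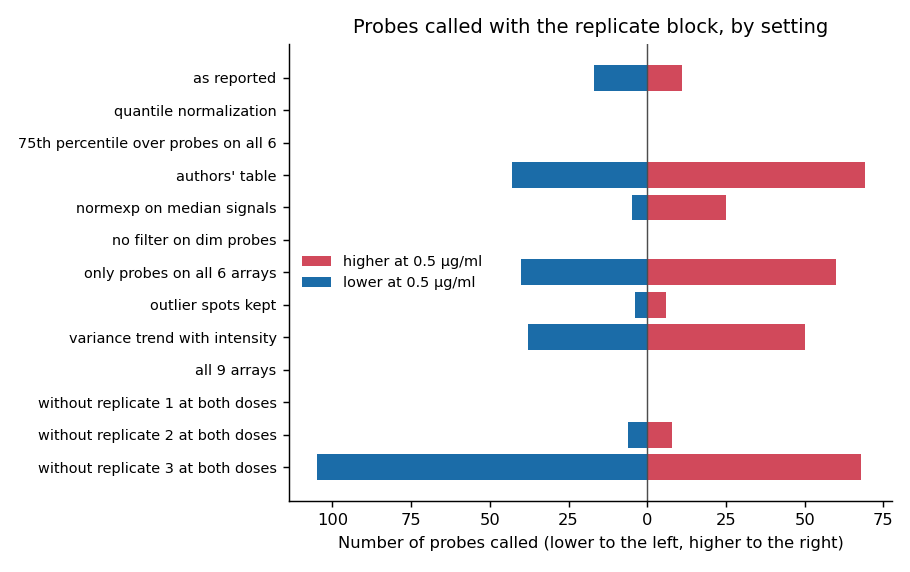
Number of probes called between 0.5 and 0 μg/ml with the replicate block under each setting, higher ones to the right of 0 and lower ones to the left. The count ran from 0 under 5 settings to 173 without replicate 3 at both doses, against 28 as reported.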

How the data were processed

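Per the file headers, the authors extracted spot intensity from 1-colour (Cy3) arrays with Agilent Feature Extraction 10.7.3.1. The deposited processed intensity is background-subtracted, detrended within the array, floored, and not scaled between arrays. The authors' own table, also deposited, holds the same intensity values times 1 constant per array, rounded, with a median of 37 and a ceiling. Per the file headers each spot also carries marks (a 0 or 1 score) for detection and outliers. The paper cited for these data does not describe the exposure.

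The log2 of the processed intensity of 49077 probes was taken and set relative to the 75th percentile of its array, and outlier spots (7 to 290 per array at these doses) and 1319 control spots were left out. No spot was saturated. The test was limma (version 3.58.1, under R 4.3.3), with 1 mean per dose over all 9 arrays, two-sided, with Benjamini-Hochberg adjustment over the 17782 tested probes. Probes were called at an adjusted p under 0.05. The fit was also run on simulated data. Those data held normal noise with no scan shift and no floor, so that run does not test the calls made here.

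As a look at pairing, the deviations of each array from its dose mean were correlated between doses within a replicate number, which gave 0.42, 0.831, and 0.72. The highest value between unequal numbers was 0.553 (replicate 3 exposed to LECT2, replicate 1 untreated, both in the first scan), above the 0.42 of replicate 1. At both doses only replicate 2 was in the second scan, so a shared scan can give such values too. The arrays at 5 μg/ml, where replicate 3 was in the second scan, are not part of this look. They do not establish that equal numbers are pairs, and neither do the labels. The block fit takes the numbers as pairs without that being known.

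Up to 2 probes in each direction were named for the largest change (detected on all 6 arrays) and the smallest p without block, among probes with a value on all 6 arrays whose groups do not overlap and whose differences share a sign. The 4 probes with the smallest p in the block fit, 2 in each direction, were chosen after their values were seen. Members, lists and tests were chosen with earlier results of these data known. Alternatives were other scalings, filters, blocks, and fits on fewer arrays, and those to the block fit were added after the data were seen. Precision is limited by having 3 arrays per dose and, near the floor, by background.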

Additional observations from a re-analysis of the deposited data

How the results depend on the processing

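Without the 6-array replicate block, 0 probes were called in limma under every setting tried (18 with the one reported: 3 other scalings between arrays or corrections, values of the authors' table, 2 other detection filters, outlier spots kept, 6 arrays only, the scan or the replicate number as a block over 9 arrays, a variance trend, and each of the 6 arrays left out in turn). At an unadjusted p under 0.05 in limma there were 51 probes (0.287% of 17782, with normexp) to 664 (1.35% of 49077, without a detection filter). The highest share was 2.72%, without replicate 2 at 0.5 μg/ml. The replicate block over the 6 arrays gave 28. With that block the count was 0 with quantile normalization, with the 75th percentile of the probes detected on all 6 arrays, without a detection filter, and over all 9 arrays. It was 112 of 17782 on the authors' table (69 higher, 43 lower), 100 of the 15053 probes detected on all 6 arrays, 88 of 17782 with a variance trend with intensity and 10 of 17782 with outlier spots kept. With normexp it was 30 (25 higher, 5 lower), which kept 7 of the 11 higher probes and 0 of the 17 lower ones. Leaving out each replicate number at both doses gave 0 to 173 (14 without replicate 2). Where the count is above 0 it shared 25 (authors' table), 12 (trend), 10 (outlier spots kept), 10 (without replicate 2) and 24 (without replicate 3) probes with the 28. No named probe changed direction under the settings it was run in: the block settings for the 4 probes chosen by the block fit, and the others with the 6-array block for the remaining 4.

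The difference in probes detected per array, −1309, was −3435 to 559 when each array was left out in turn, and turned round, to 559, only without replicate 1 at 0.5 μg/ml. Why the counts moved was not tested. For probes not detected at a dose the data give only a bound on the fold, and the fitted change there is not exact.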
